A study of Sorghum propinquum with 2 samples.

Results

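Phosphoenolpyruvate (PEP) carboxylase, or PEPC, joins bicarbonate to PEP to make oxaloacetate. The PEPC gene family and the kinase named for its C4 copy were compared here between the rhizome and the shoot of *Sorghum propinquum*, a wild C4 grass that spreads by rhizomes, which are underground stems. The members were given as a list of 7 locus IDs, of which 7 were found among the 24371 genes that both deposited tables list. Sb10g021330 is listed as the C4 PEP carboxylase and Sb04g036570 as the C4 PEPC kinase. The 5 non-C4 PEP carboxylases are Sb04g008720, Sb02g021090, Sb03g035090, Sb07g014960 and Sb03g008410. The deposited tables hold no gene names, so these roles come from the member list and could not be checked against an annotation.

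In C4 grasses, the C4 PEP carboxylase makes the first fixed carbon compound in leaf mesophyll cells. Its product is converted, for example to malate, and carried to the bundle sheath, where carbon dioxide is released beside Rubisco. Non-C4 PEP carboxylases are found in most plant tissues, where they replace the organic acids that the tricarboxylic acid cycle gives up for amino acid synthesis. PEPC kinase phosphorylates PEP carboxylase near its amino end, which makes the enzyme less sensitive to inhibition by malate. In leaves of C4 plants this phosphorylation follows the light, and the kinase is controlled largely through the amount of its transcript.

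Total RNA was sequenced from 1 rhizome library and 1 shoot library. Both organs came from 1 unnamed vegetative clone without transgene or treatment, grown in a greenhouse and taken at active tillering, when side shoots form. The labels give neither the time of day, nor the number of plants, nor which parts of the shoot were taken. The reads counted in genes came to 16862624 for the rhizome and 17153968 for the shoot. With 1 library per organ there is no error between samples and no test between the organs, so every interval below is an exact 95% interval for counting error only. Reads may not be independent molecules, since the labels mention no molecular identifiers. Levels are in RPKM, which divides a gene's reads by its length in units of 1000 bases and by the library's reads in units of 1000000. In bulk tissue, fewer cells of a type and less RNA per cell cannot be told apart. The organ labels could not be checked against marker genes, because the tables do not pair IDs with products.

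The C4 PEP carboxylase was abundant in the shoot and had very few reads in the rhizome. Sb10g021330, numbered to chromosome 10 by its ID, had 52982 reads and 518 RPKM in the shoot library (interval 514 to 523 RPKM). In the rhizome library it had 53 reads and 0.528 RPKM (0.395 to 0.690). The shoot library is thus far above the rhizome library, by 983-fold (751-fold to 1312-fold). The rhizome level was 0.102% of the shoot level and lay under the 1 RPKM taken here as detection, though well above the 0.0299 RPKM that 3 reads would give this gene in that library.

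Among all genes, Sb10g021330 ranked 9th by reads and 106th by RPKM in the shoot library, and it took 0.309% of the shoot reads. In the rhizome library it ranked 19302nd by RPKM, with 20.8% of the listed genes below it. A difference was called where the organs were at least 4-fold apart with at least 5 RPKM in the higher library. Of the 7 members, 6 reached 5 RPKM in either library, and only the C4 PEP carboxylase passed the rule, on the shoot side. Over the 12826 genes that reached 5 RPKM in one library or both, the background for this count, 9.02% passed on the shoot side and 1.8% on the rhizome side. The C4 copy entered this set through its shoot level alone. Its ratio was shared or exceeded toward the shoot by 59 of these genes, itself included, which is 0.460%. Of the 106 genes with a shoot RPKM at or above that of Sb10g021330, itself included, 3 were under 1 RPKM in the rhizome, and 43 passed the rule on the shoot side.

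**Figure D1:**
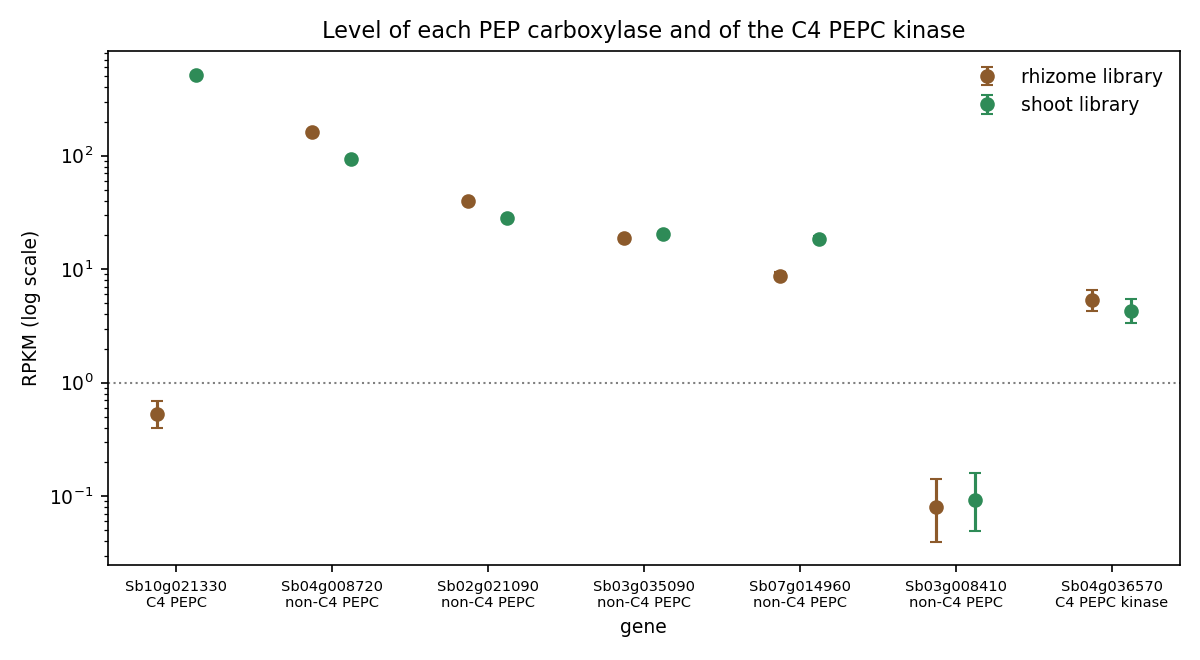
RPKM on a log axis for the 6 PEP carboxylases and the C4 PEPC kinase in the rhizome library (brown) and the shoot library (green). Points are the single libraries, bars are exact 95% Poisson intervals of the read counts (hidden by the point where narrow), and the dotted line marks 1 RPKM. Sb10g021330 goes from 0.528 RPKM in the rhizome to 518 RPKM in the shoot, while the points of each other gene lie close together.

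The non-C4 PEP carboxylases differed far less between the organs, and not in 1 direction. Sb04g008720, the most abundant of them, had 17574 reads and 163 RPKM in the rhizome, against 10293 reads and 93.6 RPKM in the shoot. It was 1.74-fold higher in the rhizome (1.70 to 1.78). Sb02g021090 had 3368 reads and 39.6 RPKM in the rhizome and 2443 reads and 28.3 RPKM in the shoot, 1.40-fold higher in the rhizome (1.33 to 1.48). Both were thus higher in the rhizome library by more than counting error.

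Another 2 copies were higher in the shoot library by more than counting error. Sb07g014960 had 721 reads and 8.74 RPKM in the rhizome and 1556 reads and 18.5 RPKM in the shoot, 2.12-fold higher in the shoot (1.94 to 2.32). Sb03g035090 had 2089 reads and 18.6 RPKM in the rhizome and 2314 reads and 20.3 RPKM in the shoot. Its shoot level was 1.09 times its rhizome level (1.03 to 1.16), an interval whose lower end is close to 1.

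The fifth copy, Sb03g008410, was barely expressed in either organ. It had 11 reads and 0.0799 RPKM in the rhizome and 13 reads and 0.0928 RPKM in the shoot. Its shoot to rhizome ratio of 1.16 had an interval of 0.480 to 2.86, so a difference of up to about that size was not detectable at this depth. It lay below 1 RPKM in both libraries, with 9.39% of the listed genes lower in the rhizome and 7.59% lower in the shoot.

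Set against all genes, the non-C4 ratios lay among those of most genes. Of the 5 non-C4 copies, 4 were within 2-fold between the organs and 2 were higher in the rhizome. Across the 12826 genes of the background, 72.2% were within 2-fold and 59.4% were higher in the rhizome. The median log2 ratio of rhizome to shoot was 0.20 over those 12826 genes and 0.18 over the 4 non-C4 copies that reach the same 5 RPKM, of which 75% were within 2-fold. With Sb03g008410, which does not reach it, the median over the 5 copies was -0.12, so its sign rests on that copy. It was 0.22 over the 16710 genes that the rhizome and the shoot each held at 1 RPKM or above. Among those 16710 genes, 82.7% had a lower ratio of rhizome to shoot than Sb04g008720, 66.5% lower than Sb02g021090, 32.9% lower than Sb03g035090 and 11.1% lower than Sb07g014960. The median ratio of all genes was thus slightly on the rhizome side, and scaling the libraries to remove it lowers each of these log2 ratios by 0.22. Under that scaling Sb04g008720 and Sb02g021090 stayed higher in the rhizome, and a copy higher in the shoot could not change direction.

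**Figure D2:**
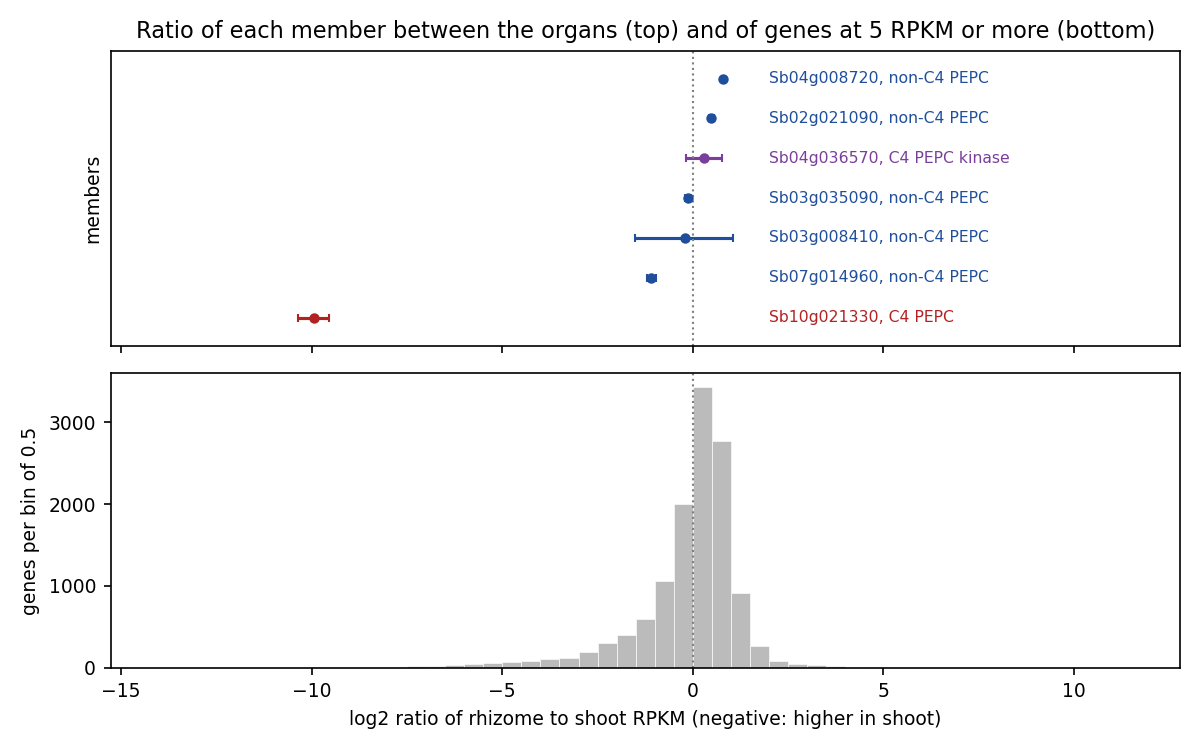
The upper panel plots the log2 ratio of rhizome to shoot RPKM of each member, with exact 95% counting intervals as bars. The lower panel counts, in bins of 0.5, the 12765 background genes (5 RPKM reached in at least 1 library) that have reads in both libraries. Sb10g021330 sits at -9.94, in the far shoot tail, while the other 6 members sit between -1.09 and 0.80, within the bulk of the genes. Sb03g008410 is drawn in the upper panel although it is under 5 RPKM.

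The make-up of PEP carboxylase expression differed between the organs in which copy led. The C4 copy made up 76.3% of the summed RPKM of the 6 PEP carboxylase genes in the shoot and 0.229% of it in the rhizome. In reads, which need no gene length, its share was 76.1% of 69601 family reads in the shoot (75.8% to 76.4%) and 0.223% of 23816 in the rhizome (0.167% to 0.291%). The summed family level was 679 RPKM in the shoot and 230 RPKM in the rhizome, 2.95 times as high in the shoot. Without the C4 copy the order turned: the 5 non-C4 genes summed to 230 RPKM in the rhizome and 161 RPKM in the shoot. Their reads, scaled by the library totals, were 1.45-fold higher in the rhizome (1.43 to 1.48). The excess of 68.9 RPKM was about the size of the difference in Sb04g008720 alone, at 163 RPKM in the rhizome and 93.6 RPKM in the shoot. Among the other copies, Sb02g021090 was higher in the rhizome, while Sb03g035090, Sb07g014960 and Sb03g008410 had the higher RPKM in the shoot. In the sum, the differences of these other copies nearly cancelled.

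**Figure D3:**
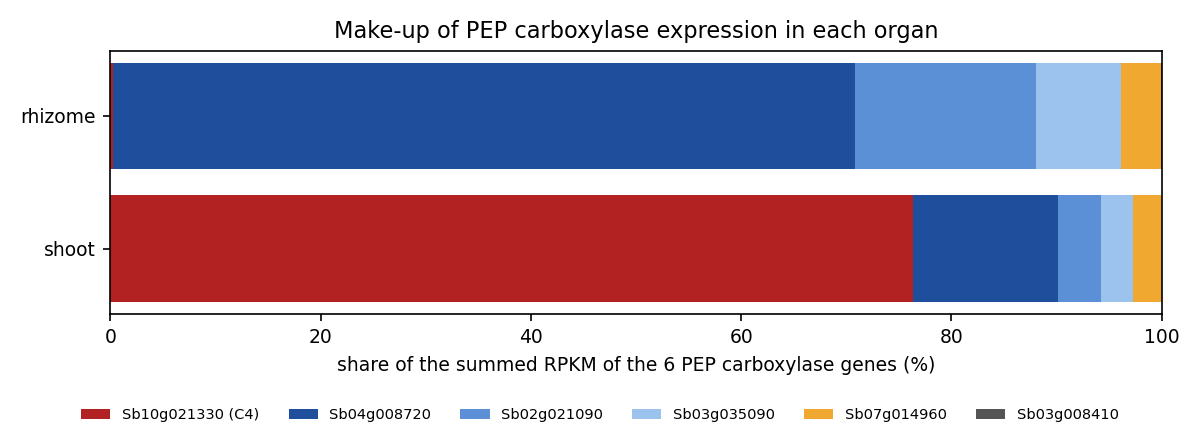
Each bar divides the summed RPKM of the 6 PEP carboxylase genes in 1 library into the shares of the genes, in percent. The C4 copy (red) takes 76.3% of the shoot bar and 0.229% of the rhizome bar, where Sb04g008720 (dark blue) takes 70.6%. Sb03g008410 is too small to see in either bar.

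Within each organ the non-C4 copies kept 1 order, from Sb04g008720 through Sb02g021090, Sb03g035090 and Sb07g014960 to Sb03g008410. Neighbours in this order differed by more than counting error in both libraries. The narrowest step was between Sb03g035090 and Sb07g014960 in the shoot, at 1.09-fold (1.03 to 1.17), where the same step in the rhizome was 2.13-fold (1.96 to 2.32). These steps compare RPKM and so rest on the deposited lengths, which run from 4891 to 8169 bases for the PEP carboxylases and whose measurement is not stated.

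The non-C4 expression was more concentrated in 1 copy in the rhizome. Sb04g008720 took 70.8% of the summed non-C4 RPKM in the rhizome and 58.2% of it in the shoot. Sb07g014960 went the other way, with 3.81% in the rhizome and 11.5% in the shoot. Sb02g021090 held 17.3% and 17.6%. Sb03g035090 held 8.12% in the rhizome and 12.6% in the shoot.

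The ratio of 1 copy to another can be compared between the organs in reads alone, free of gene length and of library scaling. Between Sb07g014960 and Sb04g008720 this ratio was 3.68 times as high in the shoot as in the rhizome (3.36 to 4.04). Between Sb02g021090 and Sb04g008720 it was 1.24 times as high in the shoot (1.17 to 1.31). The counting interval excluded 1 for 6 of the 6 pairs among the 4 better-expressed non-C4 copies. It included 1 for each of the 4 pairs with Sb03g008410, which had too few reads for the comparison.

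The order of C4 and non-C4 copies was opposite in the organs. In the shoot library, Sb10g021330 was 5.54-fold above Sb04g008720, the highest non-C4 copy (5.42 to 5.66), and 3.22-fold above the sum of the non-C4 copies (3.17 to 3.28), both in RPKM. In the rhizome library, Sb04g008720 was 308-fold above Sb10g021330 (236 to 412). The sum of the non-C4 copies there was 435-fold above the C4 copy (333 to 581). The C4 copy was higher than Sb03g008410 in both organs, by 6.61-fold in the rhizome (3.41 to 14.0) and 5589-fold in the shoot (3268 to 10497). In reads, the ratio of C4 to summed non-C4 PEP carboxylase was 1429 times as high in the shoot as in the rhizome (1092 to 1910).

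**Figure D4:**
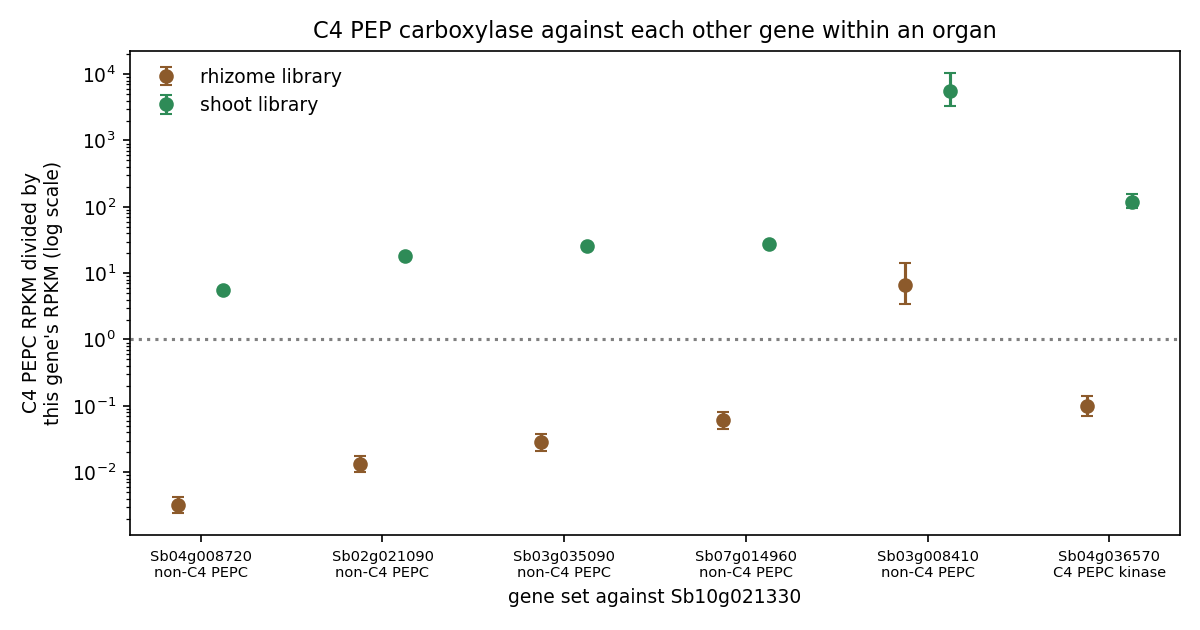
RPKM of the C4 PEP carboxylase Sb10g021330 divided by the RPKM of each other member within the same library, on a log axis, with exact 95% counting intervals as bars. All 6 shoot points (green) lie above the dotted line at 1, from 5.54 upward, and 5 of the 6 rhizome points (brown) lie below it.

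The kinase listed as the C4 PEPC kinase was not higher in the shoot library. Sb04g036570 had 87 reads and 5.31 RPKM in the rhizome (4.25 to 6.55) and 72 reads and 4.32 RPKM in the shoot (3.38 to 5.44). The rhizome to shoot ratio of 1.23 had an interval of 0.889 to 1.70, which includes 1. With the libraries scaled by their totals, a shoot level above 1.12 times the rhizome level lies outside the interval of the inverse ratio. That inverse ratio was 0.814 (0.587 to 1.12). The bound depends on the scaling: the kinase's log2 ratio of rhizome to shoot was 0.30 as deposited and 0.08 under median-of-ratios scaling. The levels were near the median of all listed genes, which was 4.11 RPKM in the rhizome and 4.19 RPKM in the shoot. Its ratio of rhizome to shoot exceeded that of 54.4% of the same 16710 genes.

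Relative to the C4 PEP carboxylase, the kinase thus stood very differently in the organs. In the rhizome the kinase RPKM was 10.1-fold above that of Sb10g021330 (7.07 to 14.4), and in the shoot Sb10g021330 was 120-fold above the kinase (95.3 to 153). Both values rest on the deposited lengths, 972 bases for the kinase and 5957 for Sb10g021330, whose measurement is not stated. The rhizome reads themselves were 87 for the kinase and 53 for Sb10g021330. In reads, the ratio of the C4 PEP carboxylase to the kinase was 1208 times as high in the shoot as in the rhizome (783 to 1862). Against the non-C4 copies the kinase differed less: its ratio to Sb02g021090 had an interval that includes 1, at 1.14 times as high in the shoot (0.819 to 1.58). Its ratio to Sb04g008720 was 1.41 times as high in the shoot (1.02 to 1.96), and its ratio to Sb07g014960 was 0.383 times as high (0.273 to 0.537). The ratio to Sb03g035090 was 0.747 times as high (0.536 to 1.04) and that to Sb03g008410 0.700 times as high (0.267 to 1.81). Both of these last intervals also include 1. The kinase, at 972 bases, has the shortest deposited length of the 7 members and fewer than 100 reads in each library, so its ratios are less precise than those of the abundant carboxylases. Whether the hour of harvest bears on the kinase level was not tested.

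The genes with the levels most like the C4 PEP carboxylase were sought by the distance between the log2(RPKM + 1) values in the 2 libraries. With 2 libraries this likeness rests on 2 values per gene and is a description. Only 5 other genes lay within a distance of 1 of Sb10g021330. The nearest was Sb06g000790, at a distance of 0.126, with 0.424 RPKM in the rhizome, from 2 reads, and 546 RPKM in the shoot. The next was Sb01g026170, at 0.226, with 0.530 RPKM in the rhizome and 443 RPKM in the shoot. What these IDs encode is not given in the sources used here, and they are printed although the rule for named genes asked for a known product. For the kinase, 5164 other genes lay within the same distance, so its levels single out no companion.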

How the data were processed

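Total RNA, extracted with TRIzol per the labels' protocols, was sequenced as Illumina libraries, 1 per organ. The aligner, counting program, genome build, annotation and strand setting were not given in the sources used here. The deposited counts are whole reads per gene with a gene length. The deposited RPKM of the authors equal those counts divided by the length and by the total of the count column, within 0.000001. PEP carboxylase copies are related in sequence, and how reads that match several copies were assigned is not stated.

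Samples were grouped by the tissue label. With 1 library per organ, no count model was fitted. Ratios of counts have exact conditional binomial (Clopper-Pearson) 95% intervals, scaled by library totals between organs and by deposited length within an organ. Against a sum of copies, the effective length of the sum was taken as fixed. Ratios of ratios have exact conditional odds ratio intervals. The named genes were all members and the nearest genes by level. The members and lists were chosen with earlier results of these data known. The 13 pathway lists and the marker lists, set as product names, could not be filled, since the tables pair no IDs with products. The alternatives were TMM, median-of-ratios and trimmed library scaling, pseudocounts, other thresholds, reads without length and other sums. Median-of-ratios scaling used the genes that each library held at 1 RPKM or above. The code was tested on simulated counts. R 4.3.3 with edgeR 4.0.16 gave the TMM factors only, and scipy 1.17.1, pandas 2.3.3, numpy 2.4.6 and matplotlib 3.10.9 in Python 3.11.15 gave everything else.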

Additional observations from a re-analysis of the deposited data

Results flagged for a closer look

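A contrast between members that ran in opposite directions in the organs was singled out, with 1 library each, and the difference between the organs was not tested over samples. The log2 ratio of the C4 PEP carboxylase to the summed non-C4 copies, in RPKM, was -8.77 in the rhizome and 1.69 in the shoot. The log2 ratio of the C4 PEPC kinase to the C4 PEP carboxylase was 3.33 in the rhizome and -6.91 in the shoot. It is also in RPKM and so rests on the unlike deposited lengths of these genes.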

How the results depend on the processing

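An equal pseudocount in both organs cannot reverse a ratio. The 3 other scalings each lowered the rhizome side, so only members higher in the rhizome could turn. These were Sb04g008720, Sb02g021090 and the kinase, and each stayed higher in the rhizome. The kinase log2 ratio fell from 0.30 to 0.13 under TMM and to 0.08 under median-of-ratios scaling. Its counting interval as deposited already included equal levels. The C4 PEP carboxylase was the only member called at 4-fold or 8-fold. At 2-fold, Sb07g014960 was called as well, toward the shoot. Of the 12826 genes, 16.8% passed toward the shoot at 2-fold and 5.22% at 8-fold, against 9.02% at 4-fold. The log2 ratios of rhizome to shoot of Sb04g008720, Sb02g021090, Sb03g035090 and Sb07g014960 were 0.62, 0.32, -0.30 and -1.26 under TMM scaling and 0.57, 0.27, -0.34 and -1.31 under median-of-ratios scaling. Each scaling shifts every log2 ratio by the same amount, which in these data was -0.17 for TMM and -0.22 for median-of-ratios. With a pseudocount of 10 RPKM, which pulls ratios toward 0, Sb10g021330, Sb04g008720, Sb02g021090 and Sb07g014960 had -5.65, 0.74, 0.38 and -0.61. Over all genes, a 2-fold rule called 1412 toward the rhizome and 2156 toward the shoot, and an 8-fold rule 97 and 670. Setting the minimum to 1 RPKM called 528 and 1787 of 19324 genes, and setting it to 20 RPKM called 86 and 578 of 5215, against 231 and 1157 of 12826. The shoot-side shares were then 9.25% and 11.1%, against 9.02%, and the rhizome-side shares 2.73% and 1.65%, against 1.8%. The C4 to non-C4 level was most sensitive to Sb04g008720, the largest term of the sum. Without that copy it was 0.00786 in the rhizome and 7.72 in the shoot, the C4 share of reads was 0.849% and 89.3%, and the difference between the organs was 978-fold. Against the highest non-C4 copy alone, an alternative chosen after seeing the data, the levels were 0.00324 and 5.54. In the shoot, the level was 3.91, 3.69 and 3.64 and the share 78.9%, 78.7% and 77.9% without Sb02g021090, Sb03g035090 and Sb07g014960 in turn. Using reads without length gave 0.00223 and 3.19. In all, 45 of 78 alternative values stayed within the counting interval or within 1.5 times the count. Coding lengths and the pathway lists were not run, since no protein or product table was used. No paired analysis was possible because there is only 1 library per organ. Depth limits Sb03g008410, the kinase and the rhizome level of the C4 copy, and the variation between plants was not measured.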
